A study of Arabidopsis thaliana with 14 samples.

Results

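The poly(A) site landscape of wild-type Arabidopsis thaliana (accession Col0) comprised 16674 sites in the nuclear genome where poly(A) tags of 12-day seedlings were listed. They were the sites that both Col0 poly(A) libraries listed, out of 27058 sites listed in either library. To obtain them, the clusters of tags in both libraries were joined on the same strand where at most 24 nt lay between neighbours, and a joined site was kept where each library contributed to it. The series holds 14 samples in 7 groups of 2, made to learn what CPSF70, an m6A-binding subunit of the cleavage machinery, does to the position of poly(A) tails; the 2 poly(A) samples of the wild type are described here, together with the 2 wild-type m6A samples from 14-day seedlings. The labels name no mutation, transgene or treatment for either group, and the plants grew in long days. The labels do not say whether replicates came from separate plantings, so the spread between the 2 libraries may be technical.

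Messenger RNA is cut by the cleavage and polyadenylation complex a short way downstream of its signal elements, and a poly(A) tail is added to the new end. In plants these elements are a far upstream element, a near upstream element related to AAUAAA and U-rich stretches around the cut, and they are looser in sequence than in animals. A gene with more than a single usable site can give transcripts that differ in their 3' UTR or, where a site lies within the body of the gene, in their coding region. In Arabidopsis such internal sites are known for FCA, IBM1, the CPSF30 gene and the resistance gene RPP7. A-seq2, the method used here, reverse transcribes fragmented poly(A) RNA from an anchored oligo(dT) primer, so that each tag is meant to mark the junction of a transcript with its tail. Whether every listed site is such a junction was not tested.

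Replicate 1 listed 30511 nuclear clusters and replicate 2 listed 27945. No cluster was below 3 TPM (tags per 1e6 tags) or wider than 51 nt. The spacing of the low values gave the worth of a single read as 0.319 TPM in replicate 1 and 0.308 TPM in replicate 2, which corresponds to 3.14 and 3.25 times 1e6 reads and puts the lower limit at 9.41 and 9.74 reads. Of the values under 10 TPM, 81.3% and 75.8% lay within 0.01 read of a whole number, and the others were fractional. Identical bounds in both tables were found for 22614 clusters, or 74.1% of replicate 1 and 80.9% of replicate 2. No site had identical values in both libraries, and the libraries differed by far more than counting error (chi-square per degree of freedom 26.5 over the 16674 sites), so both were counted.

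Sites found in both libraries carried most of the tags. They held 93.9% of the nuclear TPM of replicate 1 and 92.7% of that of replicate 2. Replicate 1 alone listed 5759 sites, with a median of 3.98 TPM, and replicate 2 alone listed 4625, with a median of 4.1 TPM, which is close to the lower limit of the tables. A few sites of a single library were nevertheless abundant. In replicate 1, 30 of them exceeded 100 TPM, with a highest value of 2148 TPM, and in replicate 2, 56 did, with a highest value of 5986 TPM.

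The sites lay almost entirely in genes. Of the 16674, 15254 (91.5%) fell within a gene on its sense strand and 440 (2.64%) within 200 nt beyond its end. A further 454 (2.72%) were antisense to a gene, 499 (2.99%) lay outside genes and 27 fell in genes whose strand could not be inferred. Sense sites inside genes held 92.9% of the TPM of the 16674 sites in replicate 1 and 89.9% in replicate 2. The gene table gave no strand, and each gene took the strand of the tags near its ends (or of at least 90% of its inner tags), so the split between sense and antisense, and part of the closeness of sites to gene ends, follow from this rule. In all, 11580 genes had a site, 11169 of them protein coding. The others included 74 snoRNA genes, 57 lncRNA genes, 23 snRNA genes and 141 pseudogenes.

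Most genes had a single poly(A) site. Exactly 1 site was found in 8732 genes (75.4%), 2 sites in 2026 (17.5%), 3 in 554 (4.78%), 4 in 166 (1.43%), 5 in 60 (0.518%) and 6 or more in 42 (0.363%). The number of sites followed the level of the gene. Genes with 1 site had a median total of 9.93 TPM, genes with 2 sites 26.5 TPM, and genes with 6 or more 387 TPM. Among genes of 3 to 10 TPM, 97.3% had a single site; among those of 100 to 300 TPM, 38.3% did, and of the 88 genes over 1000 TPM, 28.4% did. A site had to reach 3 TPM in each table to be listed at all, so a minor site of a weakly expressed gene was left out where it fell below this limit. The share of single-site genes was 67.9% in replicate 1 alone and 71.5% in replicate 2 alone. It also depended on the joining of clusters, from 58.6% where midpoints more than 24 nt apart were kept separate to 80.3% where clusters within 50 nt were joined.

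**Figure D1:**
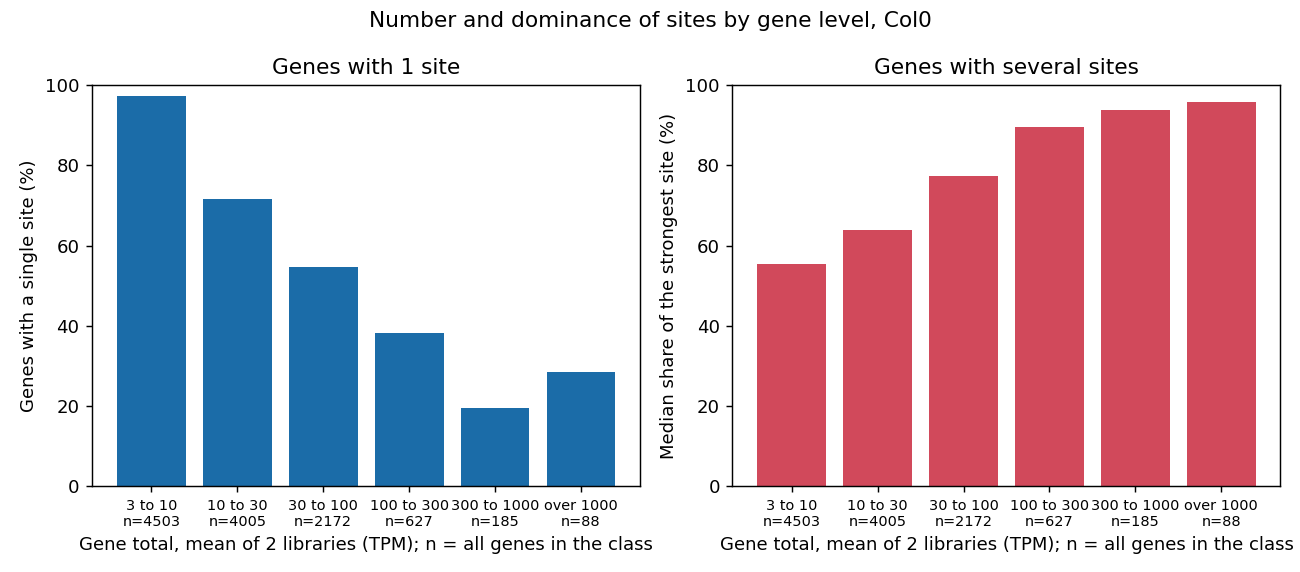
Left, the share of genes with a single poly(A) site (percent) and right, the median share of tags at the strongest site in genes with several sites (percent), for genes grouped by their mean total over the 2 Col0 libraries (TPM). Single-site genes go from 97.3% at 3 to 10 TPM to 28.4% over 1000 TPM, with the lowest share, 19.5%, at 300 to 1000 TPM, and the share of the strongest site goes from 55.4% to 95.9%.

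The genes with the most sites had 7 to 13 of them. TGG1, a myrosinase that hydrolyses glucosinolates in guard cells and myrosin cells, had 13 sites, with a gene total of 1019 TPM in replicate 1 and 818 TPM in replicate 2. RCA, the activase of Rubisco, had 9 sites at 1356 and 1051 TPM. Both genes kept a dominant site, which held 82.4% of the tags of TGG1 and 73.3% of those of RCA. PYK10, the beta-glucosidase of ER bodies, had 8 sites at 1361 and 1088 TPM, with 90.7% of its tags at a site 13 nt upstream of the gene end. CA1, a chloroplast carbonic anhydrase, had 8 sites (957 and 846 TPM, strongest site 85.8%), as did GAPA, a subunit of the Calvin cycle glyceraldehyde-3-phosphate dehydrogenase (817 and 576 TPM, 90.6%). The photorespiratory aminotransferase GGT1, the cytosolic chaperone HSC70-1 and AT3G60750 had 7 sites each, with 93.7%, 90.6% and 72.1% of their tags at the strongest. An exception was emb2726, a plastid translation elongation factor, whose strongest of 8 sites held 30.6% of its tags. DGL1, a subunit of the oligosaccharyltransferase of the ER, had 9 sites but only 226 TPM in replicate 1 and 380 TPM in replicate 2. Its strongest site was 18 nt wide, lay 2892 nt upstream of the gene end and held 50.7% of the tags.

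In the 2848 genes with several sites, a single site usually dominated. The strongest site held a median of 71.5% of the tags of its gene in replicate 1 and 71.9% in replicate 2 (mean 71.7 ± 0.295%, SD, n = 2). These values use the sites shared by both libraries. Each library processed alone gave 70.9% for replicate 1 and 70.2% for replicate 2. The strongest site held at least 50% in 92.6% of these genes, at least 75% in 43.5% and at least 90% in 17.6%. The dominance was higher in abundant genes, with a median share of 55.4% at 3 to 10 TPM, 77.2% at 30 to 100 TPM and 95.9% over 1000 TPM. Weak genes with several sites can only show near-equal ones, since each site has to pass the same lower limit, and this limit sets the low end of the range in part. At the high end, the strongest site had a median width of 347.5 nt over 1000 TPM, against 32 nt at 3 to 10 TPM. Its share then sums many joined clusters and does not show a preference for a single position. How far joining raises the share at each level was not tested.

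The libraries mostly agreed on which site was the strongest. The same site led in both libraries in 2507 of the 2848 genes (88.0%). Where the strongest site held 50 to 60% of the mean level, this was the case in 64.2% of 615 genes, and where it held 60 to 75%, in 97.7% of 782 genes. The share of the strongest site differed between libraries by a median of 4.42 percentage points, and by 15.6 points at the 90th percentile. The second site lay upstream of the strongest in 1971 genes (69.2%), at a median distance of 330 nt, and downstream of it in 877 (30.8%), at a median of 156 nt.

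The most even use of sites was sought among genes of at least 100 TPM, and the 10 with the lowest share of the strongest site are given. BAG7, a co-chaperone of the ER, had 3 nearly equal sites at 28.7, 31.2 and 29.3 TPM in replicate 1 and 25.5, 22.2 and 20.3 TPM in replicate 2, all of them 1487 to 1832 nt upstream of the gene end. Its order of sites differed between the libraries, and the strongest by mean level held 26.5%. SIP3, a protein kinase that interacts with calcineurin B-like calcium sensors, had sites of 80.6 and 68.0 TPM, 97.9 and 49.9 TPM, and 66.3 and 58.0 TPM in replicates 1 and 2, placed 1650, 786 and 183 nt upstream of the end. The site of SIP3 that led in replicate 1 came last of these 3 in replicate 2.

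The paralogous dehydrins ERD14 and ERD10, which accumulate under cold and drought, shared this pattern. In ERD14, sites 154, 585 and 383 nt upstream of the gene end had 92.4, 96.6 and 80.0 TPM in replicate 1 and 82.1, 63.9 and 56.3 TPM in replicate 2. In ERD10, sites 167, 572 and 377 nt upstream had 116, 93.1 and 66.4 TPM in replicate 1 and 91.2, 70.8 and 51.7 TPM in replicate 2. The order of the 3 sites was the same in both libraries for ERD10, and the first 2 changed places for ERD14. The strongest site held 38.5% of the tags of ERD10 and 35.2% of those of ERD14.

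In emb2726 the site 525 nt upstream of the gene end (49.4 and 36.6 TPM) was close to the site 89.5 nt upstream (43.9 and 33.2 TPM). The transcription factor gene bZIP2 had sites 248 and 755 nt upstream, at 47.2 and 48.0 TPM in replicate 1 and 36.3 and 21.3 TPM in replicate 2. FBA6, a cytosolic aldolase, had 45.8 and 38.3 TPM in replicates 1 and 2 at its site 129 nt upstream and 57.1 and 10.5 TPM at its site 642 nt upstream, so the leading site of FBA6 changed between the libraries. The other 3 genes, AT5G20700, AT5G66310 and GMD1, had strongest sites with 34.8%, 34.9% and 38.9% of their tags. AT5G66310 and GMD1 lie in a dense stretch of chromosome 5 described further on.

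Other genes had their main sites far apart. Among genes of at least 100 TPM whose second site held at least 20% of the tags, the main sites lay farthest apart in AT4G33500 (2833 nt), PATL1 (1939 nt), RP1 (1884 nt), WLIM2b (1728 nt) and GRF10 (1718 nt). PATL1 encodes patellin 1, a phosphoinositide-binding protein of the cell plate. Its site 112 nt upstream of the gene end had 112 and 111 TPM in replicates 1 and 2, and its site 2064 nt upstream had 118 and 87.1 TPM. RP1 encodes the ribosomal protein L3, and had 145 and 117 TPM at its distal site and 94.4 and 79.4 TPM 2156 nt upstream of the gene end. In WLIM2b, an actin-bundling LIM protein, the distal site (100 and 67.1 TPM) led the proximal site (23.6 and 20.6 TPM) in both libraries. In GRF10, a 14-3-3 protein, the proximal site 1779 nt upstream of the end led with 76.2 and 36.3 TPM, against 40.2 and 27.6 TPM at the distal site. The proximal site stayed ahead in both libraries, although its level in replicate 2 was lower by more than the distal one's.

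Sites clustered just upstream of the annotated gene end. The position of a site, here and in all distances to a gene end, is the midpoint of its most abundant deposited cluster, which in a wide site can lie far from the middle of the site; spacings between sites run between their middles. For the 10948 genes whose strand came from tags near their ends, the strongest site lay a median of -103 nt from the end in replicate 1 and -104 nt in replicate 2 (mean -103.5 ± 0.707 nt, SD, n = 2; negative is upstream), with quartiles of -200 and -48.5 nt. This SD understates the spread, since the sites, positions and strands were taken from both libraries together. Each library processed alone gave -103 nt for replicate 1 and -106.5 nt for replicate 2. The strongest site lay within 300 nt of the end in 83.5% of genes, more than 500 nt upstream in 1054 (9.63%) and beyond the end in 369 (3.37%). The only site of a gene lay at a median of -93.5 nt and the strongest of several at -137 nt. The remaining sites of genes with several were spread far more widely, with a median of -440 nt, and 46.1% of them lay more than 500 nt upstream. In the 632 genes with a strand from inner tags the median was -1498 nt, which that rule fixes in part, since these genes had no tags near their ends to decide the strand.

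**Figure D2:**
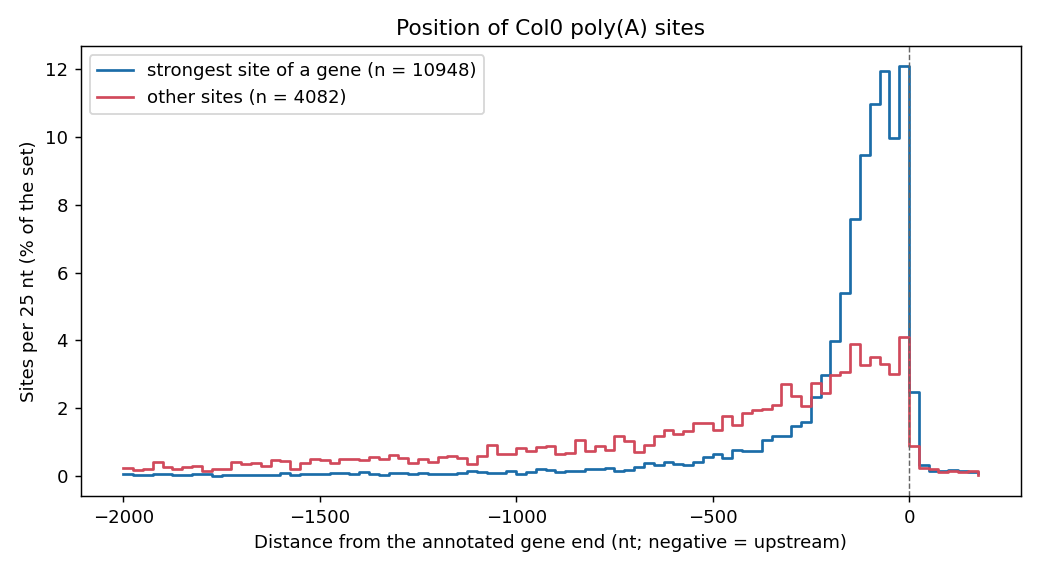
Share of Col0 poly(A) sites (percent of each set, per 25 nt) against the distance of the most abundant cluster of the site from the annotated gene end (nt, negative is upstream), for the strongest site of each gene and for all other sites, in genes with a strand from tags near their ends. Strongest sites crowd into the last 300 nt, with a median of -103.5 nt, and other sites extend far upstream, with a median of -440 nt; sites farther upstream than the axis shows are not drawn.

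Neighbouring sites of a gene had a median spacing of 243 nt between midpoints (quartiles 113 and 718 nt, 4114 pairs). Of these pairs, 20.8% were less than 100 nt apart and 18.3% more than 1000 nt. Spacing was the quantity most exposed to the joining rule: the median was 54 nt with joining around midpoints, 63 nt where only touching clusters were joined and 386 nt where clusters within 50 nt were joined.

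The genes of at least 100 TPM with the strongest site farthest upstream were NSF, ARIA, CHR42, AGO9 and AT1G54920, at 6198, 4847, 4594, 4442 and 4167 nt from the gene end. NSF encodes the ATPase of vesicle fusion. Its upstream site had 155 TPM in replicate 1 and 267 TPM in replicate 2, and its site 118 nt from the end had 8.29 and 5.23 TPM. AGO9, an Argonaute protein known from ovules, had 262 and 615 TPM at the upstream site and 6.08 and 10.2 TPM at the site 22.5 nt from the end. CHR42, a putative chromatin remodeller, had 171 and 104 TPM at the upstream site. All 5 of these sites were at most 51 nt wide, while a site near the gene end of ARIA, an armadillo-repeat protein of abscisic acid signalling, was 108 nt wide with 36.3 and 32.0 TPM. The upstream site of ARIA had 3.69 TPM in replicate 1 and 1731 TPM in replicate 2, so its rank rests on replicate 2, and the same holds for AT1G54920 (3.98 and 554 TPM).

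Among the genes whose strongest site lay farthest beyond the annotated end, NDPK1, a nucleoside diphosphate kinase, had its strongest site 90 nt beyond it (281 TPM in replicate 1 and 237 TPM in replicate 2) and a second 161 nt beyond it (48.3 and 40.6 TPM). Another site of NDPK1 lay 7 nt upstream of the annotated end with 9.56 and 6.16 TPM, so that the levels at the annotated end were the lowest in both libraries. The only site given to the snoRNA gene AT5G09020 lay 124 nt beyond its annotation (174 and 156 TPM), and that of AT2G30105 130 nt beyond it (89.3 and 173 TPM). Clusters on that strand covered 0% of the span of either gene. The outside site thus set the strand itself, and whether these transcripts belong to the genes was not tested. The other 2 genes were AT2G03875 (115 nt) and AT3G06355 (80 nt), whose sites were 1346 and 3409 nt wide. Their sites may be copies of a repeat, as described further on, and this was not tested.

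The tags were concentrated on few sites. The 10 most abundant sites held 12.3% of the nuclear TPM in replicate 1 and 18.1% in replicate 2, the first 100 held 35.2% and 42.9%, and the first 1000 held 61.1% and 65.0%. These top sites were of different shapes. A deposited nuclear cluster is at most 51 nt wide, so a site wider than that is a chain of clusters joined end to end; such sites are called wide here and the others narrow. Of the 88 sites over 1000 TPM, 56 were wide and had a median width of 534 nt, and 32 were narrow with a median of 23 nt. Narrow sites over 1000 TPM held 12.1% of the TPM in replicate 1 and 19.4% in replicate 2, and wide ones 21.9% in each.

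The 3 leading genes each had most of their tags at a single short site. AT5G66675 had 18749 TPM in replicate 1 and 39146 TPM in replicate 2 at a site of 72 nt, joined from 2 neighbouring clusters and so counted as wide (TAIR10 chr5:26616781-26616852, minus strand), 1993 nt upstream of its end. AT2G36670 had 17847 and 20733 TPM at a site of 27 nt (chr2:15367726-15367752, minus strand), 2963 nt upstream. UGT72E2, a glucosyltransferase of monolignols, had 16310 and 20752 TPM at a site of 26 nt (chr5:26625598-26625623, minus strand), 562 nt upstream. These sites held more than 96% of the tags of each gene in each library, and all 3 levels were higher in replicate 2. The lncRNA AT3G06355 came next by gene total, with 8447 and 14186 TPM at a site of 3409 nt on chromosome 3 (14200097 to 14203505, plus strand) that starts beyond its annotated end. Its start and end lie at the same offset from positions 6126 and 9534 on the plus strand of chromosome 2. Those positions bound the highest site outside genes and the main site of AT2G03875. Whether these are copies of a repeat that share reads was not tested, so their levels and genes are uncertain. Of the other leading genes, SDS, a cyclin known from meiosis, had a single site of 25 nt at 4248 and 7459 TPM, AT1G55947 a single site of 29 nt at 4956 and 6746 TPM, and the pseudogene AT3G14800 a site of 20 nt at 5243 and 11549 TPM.

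RBCS1A, a small subunit of Rubisco, and LHB1B2 (LHCB1.5), a chlorophyll a/b-binding protein of photosystem II, were among the 10 leading genes with sites of another form. The main site of RBCS1A was 556 nt wide and had 8321 TPM in replicate 1 and 5932 TPM in replicate 2. Clusters of either library on its strand covered 51.4% of the span of RBCS1A. LHB1B2 had a single site of 1065 nt at 7954 and 6573 TPM, and clusters on its strand covered 93.1% of its span. The spans of RWA3 and AT2G08665 overlap this site, and reads of overlapping genes cannot be told apart where they share a strand. LHCA1, a light-harvesting protein of photosystem I, had 6396 and 5135 TPM at a main site of 385 nt. Tags were thus listed along most of the transcript and not only at its end, and all 3 genes were higher in replicate 1. The ribosomal RNA genes AT3G41768 (5452 and 3953 TPM) and AT2G01010 (4467 and 3399 TPM) had a joined site of 1830 nt each, with clusters over 97.0% and 95.7% of their spans. They are nearly identical copies, and so are several RBCS, LHCB1, elongation factor and histone genes, so the split of reads among such copies is uncertain.

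Width went with level across the whole set. The median site was 30 nt wide at 3 to 10 TPM, 44 nt at 10 to 30 TPM, 77 nt at 30 to 100 TPM and 355 nt over 1000 TPM. The median share of the gene span covered by clusters of either library on its strand was 1.34% for genes of 3 to 10 TPM and 44.3% for genes over 1000 TPM. In deeply tagged genes more positions pass the lower limit of 3 TPM, and the contribution of depth to width was not tested.

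Of the gene lists, the photosynthesis genes had the highest median level. All 31 members had a site, and they held 11.3% of the nuclear TPM of replicate 1 and 8.66% of that of replicate 2. Their median total was 2326 TPM, against 13.6 TPM over all 11580 genes with a site, and their range ran from 190 TPM for PETE1, a plastocyanin, to 7467 TPM for RBCS1A. LHCB5 had 5415 TPM in replicate 1 and 4185 TPM in replicate 2, and LHCA4 had 5154 and 3617 TPM. RBCS3B had 4236 and 3698 TPM. All 31 were higher in replicate 1, with a median log2 ratio of replicate 2 to replicate 1 of -0.37; over all genes 8781 of 11580 (75.8%) were higher in replicate 1, with a median of -0.28. In whole seedlings, fewer cells of a type and less RNA per cell cannot be told apart. TPM values are also shares of a library. Narrow sites of at least 100 TPM held 17.1% of the TPM in replicate 1 and 25.5% in replicate 2. How far this lowers other levels in replicate 2 was not tested.

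**Figure D3:**
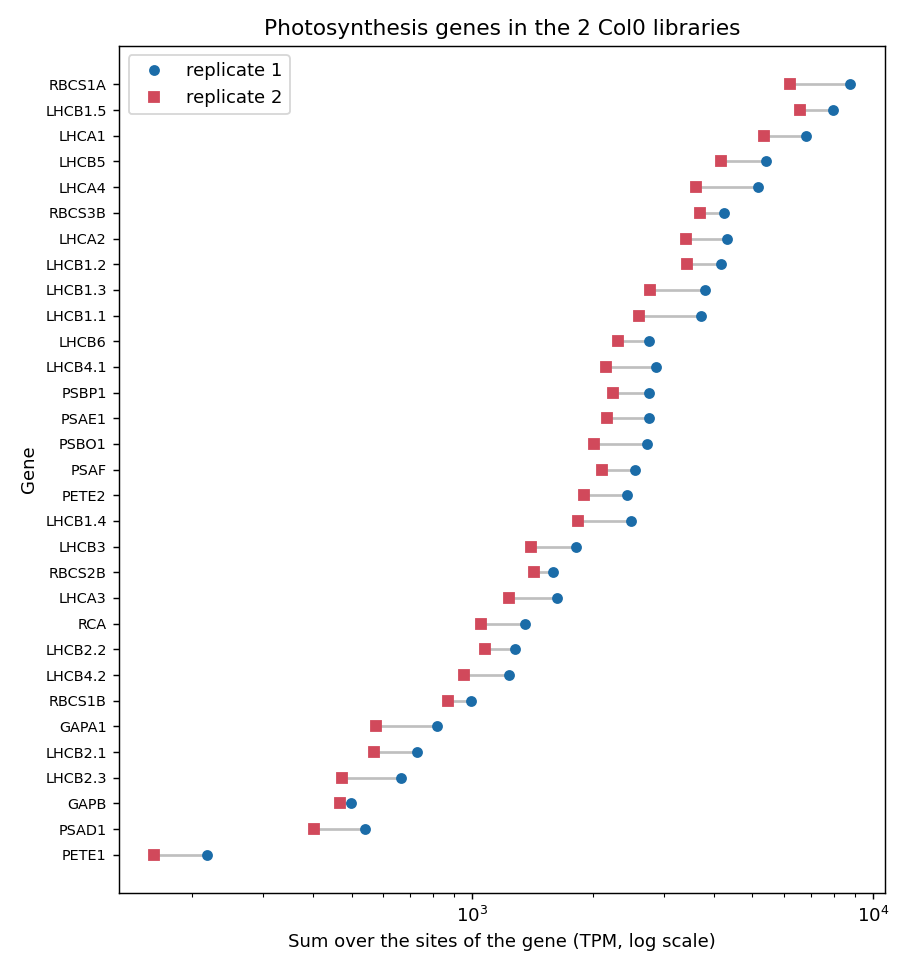
Gene totals of the 31 photosynthesis genes in Col0 replicate 1 (circles) and replicate 2 (squares), as the sum over all sites of a gene (TPM, log scale). RBCS1A leads in replicate 1 and LHCB1.5 in replicate 2, PETE1 is lowest in both, and all 31 genes lie higher in replicate 1.

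Most of these genes had several sites, of which a wide one dominated. A single site was found in 9 of the 31 (29.0%), against 75.4% of all genes with a site, and in the other 22 the strongest site held a median of 95.4% of the tags, against 71.4% over all genes with several sites. The strongest site had a median width of 559 nt and clusters of either library covered a median of 59.3% of the gene span, against 42 nt and 2.19% over all genes with a site. RCA was the exception in dominance, at 73.3%. The strongest site lay at a median of -129 nt from the gene end, against -103.5 nt over all genes.

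Histone genes, whose transcripts carry poly(A) tails in plants, were lower. All 16 H3 and H4 genes had a site, at a median total of 58.8 TPM, and 11 had a single site. The H3.3 gene AT4G40040 was the highest, with 341 TPM in replicate 1 and 267 TPM in replicate 2, followed by the H3.3 gene AT5G10980 with 176 and 133 TPM. The lowest was the H3.1 gene AT5G10390 at 10.2 and 10.6 TPM. The strongest site lay at a median of -134 nt. In the 5 histone genes with several sites, it held a median of 90.5% of the tags.

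Of the 14 genes for elongation factor 1-alpha, actin, ubiquitin, cytosolic glyceraldehyde-3-phosphate dehydrogenase and the phosphatase subunit PP2AA3, all had a site and 3 had a single site. Their median total was 189 TPM. UBQ10, a polyubiquitin, was the highest with 500 TPM in replicate 1 and 383 TPM in replicate 2, and PP2AA3, often used as a reference transcript, the lowest with 12.4 and 9.54 TPM. GAPC2 divided its tags most evenly, with 47.2% and 59.1% at the strongest of its 5 sites. ACT7, the actin of vegetative growth, followed with 61.1% and 65.5% at the strongest of 4 sites. The strongest site held a median of 89.8% of the tags over the 11 genes with several sites.

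Of the 9 genes known for a choice between poly(A) sites, 4 had a site in both libraries. FYVE1, an endosomal protein that binds phosphatidylinositol 3-phosphate, had 3 sites and a total of 41.9 TPM in replicate 1 and 31.1 TPM in replicate 2, and its strongest site held 50.6% and 46.5% of the tags. RPP7, a resistance gene against downy mildew, had 2 sites at 30.7 and 22.5 TPM in all, the stronger with 72.8% and 76.5%. RPN10, the ubiquitin receptor of the proteasome, had a single site at 36.7 and 35.7 TPM, joined from 3 clusters over 122 nt. SOC1, an integrator of flowering signals, had a single site at 4.46 and 3.39 TPM, close to the lower limit of 3 TPM. A choice between positions within the RPN10 site, or a weaker site of SOC1, would thus not show here. FCA had a site in replicate 1 alone (3.19 TPM) and IBM1 in replicate 2 alone (22.5 TPM), so a choice between their sites could not be described. The remaining genes of the list are not described.

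Markers of green tissue were abundant, while those of seeds, flowers and pollen had no site in both libraries. Beside the 31 photosynthesis genes, 2 of 6 root markers had a site in both libraries: the phosphate transporter PHT1;1 with 36.0 TPM in replicate 1 and 31.1 TPM in replicate 2, and the tonoplast aquaporin TIP2;2 with 69.8 and 51.7 TPM. None of 8 seed storage and oleosin genes, 4 flower identity genes and 1 pollen gene had a site in both libraries, and 2 of the flower genes had a site in 1 library. The summed level in both-library sites was 106 and 82.8 TPM for the root list and 0 for the seed, flower and pollen lists. SDS and AGO9, known from reproductive tissue, were among the abundant genes only through narrow sites of 25 and 20 nt.

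Among abundant sites, the libraries agreed well for wide sites and poorly for narrow ones. Over all 16674 sites, log2(TPM + 1) of the libraries correlated with r = 0.902 and a rank correlation of 0.850, and over gene totals with 0.933 and 0.917; these are descriptions across sites and genes, which share their library. The 4738 wide sites correlated with r = 0.965 and the 11936 narrow ones with 0.799. These 2 values are not directly comparable, since 7842 narrow sites but only 688 wide ones had 3 to 10 TPM. In that class the SD of the log2 ratio was larger for wide sites (0.81) than for narrow ones (0.56). Of all narrow sites 10.6% were more than 2-fold apart, and of all wide sites 10.1%. Of the sites with a mean of at least 100 TPM, 678 were wide, and they correlated with r = 0.987, with an SD of the log2 ratio of 0.20 and with 0 of them more than 4-fold apart. The 198 narrow sites of that level correlated with r = -0.0151, with an SD of 3.25. Of these narrow sites, 55 (27.8%) were more than 4-fold apart, against 6.28% of the 876 sites of that level and 1.43% of all sites. A site that is high in only 1 library can pass a limit on the mean, which lowers the correlation within this set; wide sites were chosen by the same limit. Joined sites sum several clusters, and how far this accounts for their closer agreement was not tested.

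**Figure D4:**
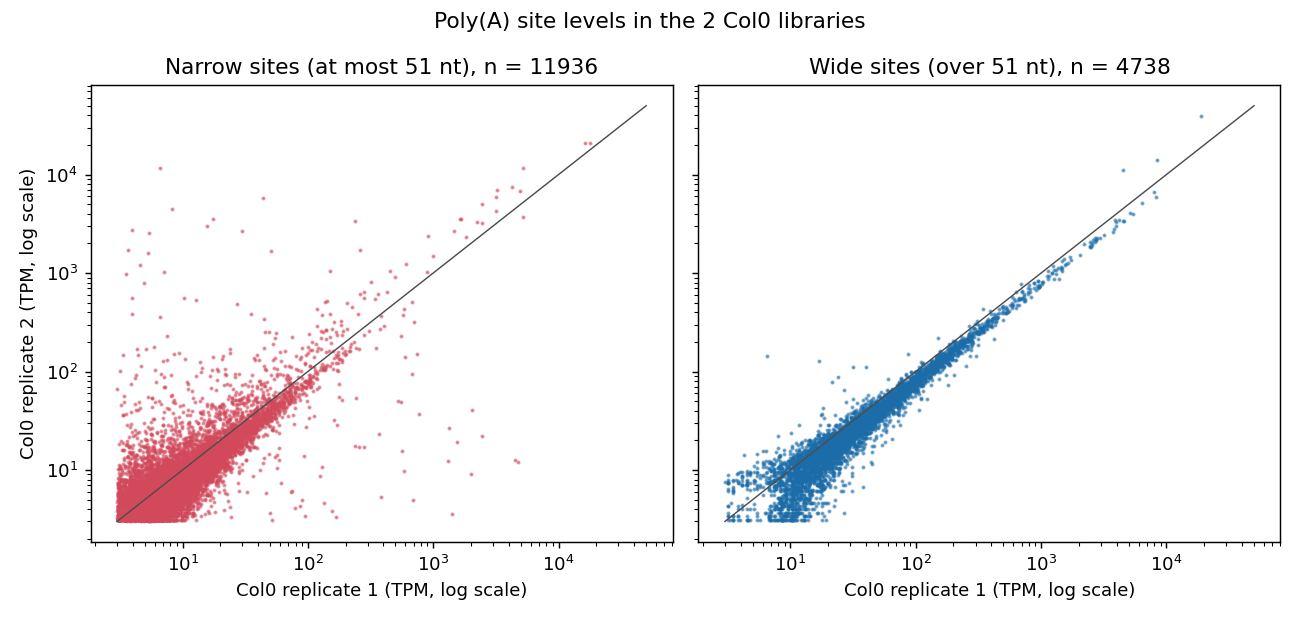
Level of each poly(A) site in Col0 replicate 1 against replicate 2 (TPM, both axes on a log scale) for the 11936 narrow sites of at most 51 nt (left) and the 4738 wide sites (right); the line marks equal levels. Wide sites lie a little below the line, at a median log2 ratio of -0.34, and follow it closely at high levels, while narrow sites include levels over 1000 TPM in one library and under 10 TPM in the other.

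The largest gaps between libraries were all at narrow sites of 18 to 33 nt. The site of CYP96A4, a cytochrome P450 gene, had 6.64 TPM in replicate 1 and 11576 TPM in replicate 2 (chr5:21246466-21246489, minus strand, 1755 nt upstream of the gene end). AT5G66840 had 3.98 and 2748 TPM, and ftsh4, which encodes a mitochondrial protease, had 5.38 and 2535 TPM. The opposite was found for AT5G56220, with 4754 TPM in replicate 1 and 12.1 TPM in replicate 2, and for AT3G14600, with 4457 and 12.6 TPM. Gaps thus ran both ways: 7 of the 10 largest were higher in replicate 2 and 3 in replicate 1. The smallest of the 10, at AT3G17712, was 3.56 against 972 TPM, a ratio of 273.

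The genes of exactly 2 sites whose leading site changed most between libraries belonged to the same kind. In AT2G38380, a narrow site 1540 nt upstream of the gene end had 12.8 TPM in replicate 1 and 537 TPM in replicate 2, while the site 363 nt upstream, 107 nt wide, had 113 and 63.7 TPM. In ABCA11, an ABC transporter, a site 2548 nt upstream had 2459 TPM in replicate 1 and 22.4 TPM in replicate 2, and in ATSYTF, a synaptotagmin, a site 2528 nt upstream had 696 and 5.0 TPM. In each case the other site of the gene differed by less than 2-fold, so that the share of the strongest site was set by the narrow site of a single library. AT5G61560 (29.7 and 2683 TPM) and AT1G54920 followed the pattern for their upstream site, and in AT5G61560 the other site also differed, at 167 and 3.37 TPM. The strands of ABCA11 and AT5G61560 came from inner tags, so their distances to the gene end follow in part from that rule.

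Narrow and wide sites of at least 100 TPM also differed in place. Of narrow sites in genes with a strand from tags near their ends, 39.4% of 142 lay within 300 nt of the gene end, at a median of -525 nt; of wide sites, 83.7% of 669 did, at a median of -137 nt. Of the 198 narrow sites, 17 were antisense to a gene, 10 lay outside genes and 12 in pseudogenes, against 0, 2 and 0 of the 678 wide sites. Narrow sites were higher in replicate 2 in 113 cases, with a median log2 ratio of 0.37, and wide sites in 24, with a median of -0.31, while 27.9% of all sites were higher in replicate 2.

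The highest antisense sites were narrow. They lay opposite OVA6, a prolyl-tRNA synthetase (chr5:21312530-21312550, minus strand, 8.27 TPM in replicate 1 and 4496 TPM in replicate 2), opposite AT1G14820 (2036 and 40.2 TPM) and opposite RHA2B, a RING-type ubiquitin ligase of abscisic acid signalling (260 and 1696 TPM). Each differed more than 6-fold between the libraries. Outside genes, the highest site was 1543 nt wide on chromosome 2 (6126 to 7668, plus strand) with 4508 and 11209 TPM, next to AT2G03875. As given above, it may be a copy of part of the AT3G06355 site, which was not tested. Narrow sites followed, with 15.8 and 2988 TPM (chr5:8594624-8594644) and with 5.26 and 1609 TPM (chr3:15622082-15622099), both on the plus strand. The last 2 were thus abundant in replicate 2 only.

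Sites were unevenly distributed along the chromosomes. In windows of 100000 nt on a strand, 2183 windows held a site, with a median of 7 sites and a 99th percentile of 22.2. At least 30 sites were held by 11 windows, which were singled out after the data had been seen. They held 502 sites together, of which 89.4% were narrow and 70.9% higher in replicate 2. In all other windows 71.0% of sites were narrow and 26.5% higher in replicate 2. The densest stretch was on the minus strand of chromosome 5 from 26400001 to 26700000, with 232 sites, against 31 on the plus strand. Of the 232, 213 were narrow and 201 (86.6%) were higher in replicate 2, and they held 5.33% of the nuclear TPM of replicate 1 and 8.75% of that of replicate 2. Most of this lay at the main sites of AT5G66675 (18749 and 39146 TPM) and UGT72E2 (16310 and 20752 TPM). The median of the 232 sites was 13.9 TPM.

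**Figure D5:**
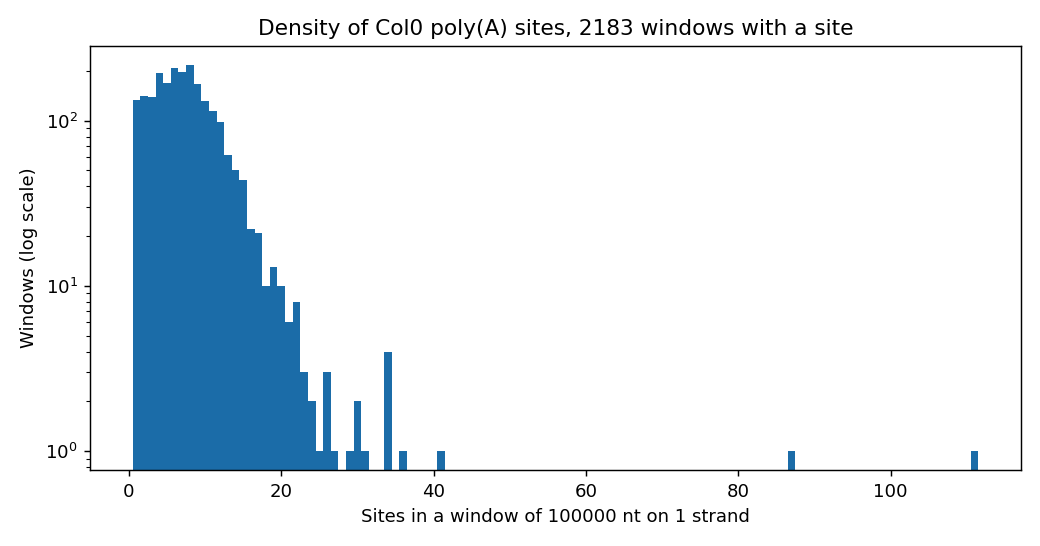
Number of Col0 poly(A) sites in windows of 100000 nt on 1 strand (horizontal axis) and number of windows with that many sites (vertical axis, log scale), over 2183 windows with a site. The median window holds 7 sites, and the windows at the far right, with up to 111 sites, belong to the minus strand of chromosome 5.

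Several genes of the preceding paragraphs lie in this stretch of chromosome 5: AT5G66675 and UGT72E2 among the most abundant, DGL1 among those with the most sites, and AT5G66310, which encodes a kinesin, and GMD1, a GDP-mannose dehydratase, among those with the most even use of sites. All 5 were higher in replicate 2, where most genes were lower. AT5G66310 had 199 TPM in replicate 1 and 327 TPM in replicate 2 over 7 sites, and GMD1 had 69.9 and 133 TPM over 4 sites. The strongest sites of both were narrow, at 3 and 5 nt. Without the dense windows the 10 most abundant sites held 10.6% of the nuclear TPM as a mean of the libraries, in place of 15.2%.

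The m6A peaks of the wild type gave a second readout at the sites. Of the peaks, 11410 were listed in both m6A libraries; they carry no strand. A peak within 300 nt upstream was found at 66.3% of the 8732 only sites of a gene, at 67.2% of the 2848 strongest of several and at 49.9% of the 4114 other sites. In 3 classes of gene level, cut at 8.59 and 22.9 TPM, the share was 63.0%, 70.6% and 66.4% for only sites and 56.2%, 70.2% and 66.0% for the strongest of several. For other sites it was 68.8%, 60.5% and 46.1%, with 48 sites in the lowest class. The lower share at other sites was thus found in the middle and upper classes and not in the lowest. Among sites of at least 100 TPM, 73.8% of 676 wide sites in genes and 19.3% of 171 narrow ones had such a peak. Other sites and narrow sites lay farther from the gene end, and the part of position in these shares was not tested. Seedlings were 14 days old for m6A and 12 days old for poly(A) sites.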

How the data were processed

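Poly(A) sites were measured by A-seq2 in 2 libraries of 12-day Col0 seedlings. The authors deposited 1 table of tag clusters per library, in which TPM values give cluster levels, per the file headers. They deposited m6A peaks per library as intervals with a fold enrichment and a −log10 p-value, per the file headers; only the intervals were used here. Tools named in the submitters' processing notes are MACS2 2.2.5, HISAT2 2.1.0 and cutadapt 1.18, with the build TAIR10. The cluster caller was not given in the sources used here.

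Nuclear clusters of both tables were joined on each strand across gaps of at most 24 nt, their TPM was summed per library, and sites listed in both were kept. Mitochondrial and plastid clusters were left out. Gene names and spans came from a RefSeq table of assembly TAIR10.1 without strand. A gene took the strand of the tags in the 40% of its span at either end and 200 nt beyond, or else of at least 90% of its inner tags; of 37899 genes, 14128 were oriented by their ends and 2063 by inner tags. The position of a site was the midpoint of its most abundant cluster, and a site belonged to a gene that held this position on its strand, or else ended at most 200 nt before it. Shares are of the summed TPM of a gene. Correlations used log2(TPM + 1).

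With a single group of 2 libraries no test was made: values are given per library, and an SD over 2 libraries is imprecise. Reads carry no molecular identifiers that the tables show, and read numbers cover counting error only. The genes named are the 10 of highest total, the 10 with most sites, the 10 of lowest share and the 5 of widest spacing, the 5 farthest upstream and the 5 farthest beyond the gene end, the 10 sites of largest library ratio and the 5 genes whose strongest site changed most, with a floor of 100 TPM where ranks need it, and the 3 highest sites outside genes and antisense; members of gene lists are named as examples. The members and lists were chosen with earlier results of these data known. Exons, UTRs and sequence were not used here. Python 3.11.15, pandas 2.3.3, NumPy 2.4.6 and matplotlib 3.10.9 were used, and the steps were checked on simulated clusters.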

Additional observations from a re-analysis of the deposited data

Results flagged for a closer look

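Organelle clusters are listed here because they were left out of the site set and yet carried tags. The mitochondrial clusters summed to 2338 TPM in replicate 1 (144 clusters) and to 1857 TPM in replicate 2 (107 clusters); each listed cluster has at least 3 TPM by construction. The plastid genome was listed in replicate 1 alone, as a single cluster that spans 154431 nt and sums to 10984 TPM. There was no control sample to set beside these values, and no cause was tested.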

How the results depend on the processing

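The joining rule had the widest effect on the share of the strongest site and on spacing. With joining of touching clusters only, within 50 nt, and around midpoints, the share of single-site genes was 59.5%, 80.3% and 58.6%, the share of the strongest site 64.6%, 74.2% and 64.0%, and the spacing 63, 386 and 54 nt; touching clusters gave a distance of -104.5 nt. With a mean of at least 10 TPM there were 8144 sites, 86.5% single-site genes, a share of 71.8%, a distance of -109 nt and a correlation of 0.845. Sites of either table numbered 27058, with 65.4%, 74.6%, -105 nt and 0.572. With no window beyond the gene end the share was 71.8% and the distance -108 nt, and with sites of at least 5% of their gene, 78.0% of genes had a single site and the share was 68.6%. A pseudocount of 10 TPM gave a correlation of 0.912. Each library alone gave 21506 to 22508 sites, 67.9% to 71.5% single-site genes, shares of 70.2% to 70.9%, distances of -106.5 to -103 nt, spacings of 215.5 to 259 nt and 12.7% to 18.8% of tags at the 10 leading sites. The following were added after seeing the data: strand by 90% of all tags gave 72.4% and -118.5 nt; genes with a strand by inner tags included gave -110.5 nt; without the dense windows the distance was -102.5 nt, the 10 leading sites held 10.6% and the correlation was 0.905. The other 44 of 80 values stayed within the spread between the libraries, within 1.5 times for the number of sites (15705 to 22531 over the joining rules) or equal to 2 decimals for the correlation. Of the levels of named genes, 465 of 505 did so, and of their shares 417 of 505. For the share, the distance and the leading sites, this spread was taken on sites shared by both libraries. Differences between libraries in the sites found are not part of it. For spacing and single-site genes, the spread came from the single-library runs, which were also judged by it. Some values could not move. These include the number of sites on rescaling to the nuclear total and the share of the leading sites with a floor of 10 TPM. No paired analysis was possible because a single group of 2 libraries was described and nothing was compared between groups. The lower limit of 3 TPM corresponds to 9.41 reads per cluster in replicate 1 and 9.74 in replicate 2, and weaker clusters were not listed.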

Other observations

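Genes of other RNA classes also had poly(A) sites. The 11169 protein-coding genes held 84.9% of the nuclear TPM in replicate 1 and 80.1% in replicate 2, and 74.8% of them had a single site. All 23 genes of spliceosomal and other snRNAs had a single site, at a median of 32.5 TPM, which is above the 13.8 TPM of protein-coding genes. The 74 snoRNA genes, whose products guide the modification of ribosomal RNA, had a median of 12.9 TPM, and 97.3% had a single site. The 57 lncRNA genes held 1.35% of the TPM in replicate 1 and 2.05% in replicate 2, and the 141 pseudogenes 2.15% and 3.69%. Without AT3G06355 the lncRNA genes held 0.154% and 0.182%, so that a single gene made up most of this class, and without AT3G14800 the pseudogenes held 1.48% and 2.24%. Of the tags of AT3G06355, 93.0% lay at its site beyond the annotated end, so their place among the lncRNA genes is uncertain. The 4 rRNA genes held 1.60% in replicate 1 and 1.17% in replicate 2. The snoRNA and snRNA transcripts may share reads with host or overlapping genes, and this was not tested.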
